A study of Actinidia chinensis with 4 samples.

Results

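The gene models described here are those of kiwifruit flesh that were far more abundant in the inner than in the outer pericarp. They number 100 of the 39761 gene models in the count table, and 0.715% of the 13994 that reached a mean of 5 CPM (counts per 1000000 counts of a library) in inner pericarp. They were chosen by their read counts in all 4 libraries. A member had a mean of at least 5 CPM in inner pericarp, a mean at least 4 times that of outer pericarp, and no overlap between the libraries of the tissues. Every difference between the tissues given for them is therefore a description of what was selected, and no test is attached to it.

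Total RNA was sequenced from the fruit of Actinidia chinensis cv. Hongyang, a kiwifruit cultivar with a red centre, at 90 days after anthesis. There were 2 libraries of inner pericarp and 2 of outer pericarp, all from fruit of the same cultivar and age grown under natural conditions, with no treatment. Replicates 1 and 2 are only names given in deposit order. Nothing states that the libraries of a tissue came from separate fruits, so p-values from the fit over all gene models measure a spread between libraries that may be technical. Column totals lay between 5228147 and 5789006 counts without Ach00g022471.2. That gene model had 0 and 837018 counts in inner pericarp, against 939209 and 771945 in outer pericarp, and it was left out of every total because it would lower the CPM of every other gene model in 3 of the libraries and leave inner pericarp replicate 1 as it is.

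In a kiwifruit the outer pericarp is the flesh below the skin. The inner pericarp lies around the pale core and holds the locules in which the seeds sit. In red-centred cultivars the red colour comes from anthocyanins, pigments made at the end of the flavonoid pathway, whose genes are switched on in many plants by complexes of MYB, bHLH and WD40 proteins. The study compared the tissues in search of such regulators. The count table does not pair its identifiers with gene names, functions or positions, so no member could be assigned to pigment, seed, vascular or any other genes, and the tissue labels could not be checked against marker genes. Members are given by identifier. The digits before the letter g form an identifier group, and the number after it is a running number. Gene models are called neighbours when they follow each other in the listed order within an identifier group, even where a running number is skipped. The coding length is the length in the table, which was a multiple of 3 in every row.

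The members were a small part of the RNA of either tissue. They took 0.495% and 0.504% of the counts in the inner pericarp libraries, against 0.0811% and 0.0758% in the outer pericarp libraries. The means were 0.499% ± 0.0064 (SD, n = 2) in inner and 0.0784% ± 0.0037 (SD, n = 2) in outer pericarp. Exact (Clopper-Pearson) 95% intervals, which cover counting error only, ran from 0.489% to 0.509% over the inner libraries and from 0.0734% to 0.0834% over the outer libraries. A few members carried much of this. The 3 with the highest mean inner CPM made up 24.98% of the members' counts in inner and 29.4% in outer pericarp. The top 10 by mean inner CPM made up 53.9% and 59.0%. In bulk tissue, fewer cells of a type and less RNA per cell cannot be told apart, so none of these values says whether a member was restricted to a kind of cell.

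Most members were of low to moderate abundance. The median member had 14.7 CPM in inner pericarp (quartiles 7.05 and 40.8), against 1.84 CPM in outer pericarp (0.910 and 5.10). By mean inner level, 34 members lay at 5 to 10 CPM, 26 at 10 to 20, 17 at 20 to 50, 7 at 50 to 100 and 16 at 100 CPM or more. The ratio of inner to outer mean CPM had a median of 6.48. It was 4 to 5 in 27 members, 5 to 8 in 32, 8 to 16 in 20, 16 to 32 in 11 and 32 or more in 10. The lowest mean outer level was above 0 in every member: 0 members had no count in both outer libraries, while 9 had no count in 1 of them.

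**Figure D1:**
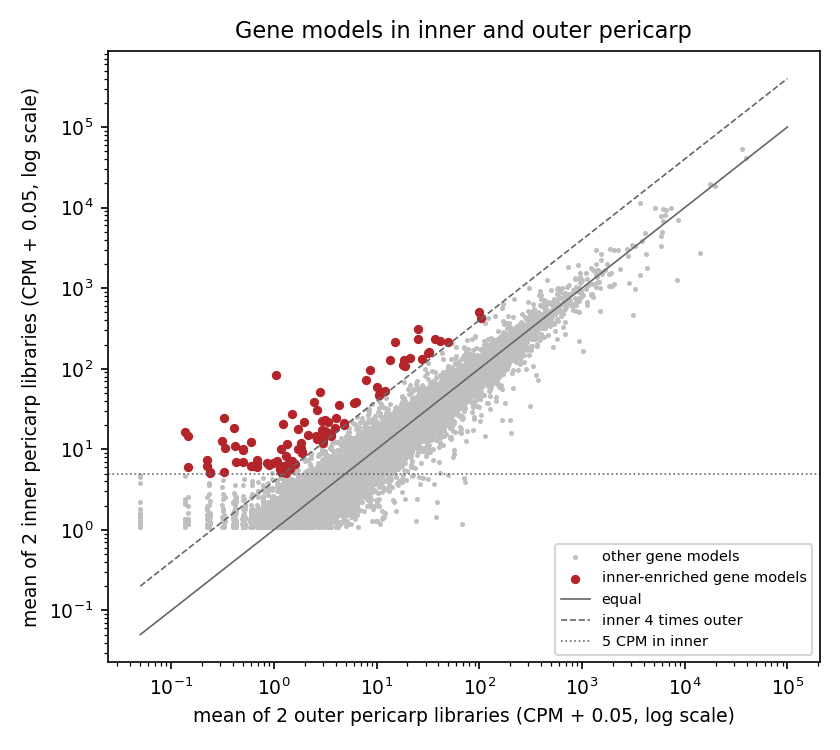
Each point is a gene model with at least 1 CPM in inner pericarp, placed by the mean CPM of the 2 outer (x) and the 2 inner pericarp libraries (y), both plus 0.05 on log scales. The 100 inner-enriched gene models (red) lie above the dashed line of a ratio of 4 and the dotted line of 5 CPM, and the 16 of them at 100 CPM or more had ratios between 4.12 and 14.3.

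Size of the difference and abundance did not go together among the members. Spearman's rho between mean inner CPM and the ratio was -0.05 over the 100 members, a description only, since the same inner level enters both measures and the rule cuts both. The 16 members at 100 CPM or more had a median ratio of 5.996 and none above 14.3, and the 60 members under 20 CPM had a median of 6.75. The 10 members with ratios of 32 or more had mean inner levels from 5.94 to 84.0 CPM, with a median of 13.6.

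All 100 members passed the low-count filter of the fit over all gene models (edgeR quasi-likelihood test) and all 100 were called higher in inner pericarp at an adjusted p under 0.05, against 8.56% of the 18359 gene models tested. The selection used the same contrast, so this count supports nothing beyond the rule. Without the filter 57 of the 100 were called, against 0.640% of the 28426 gene models then tested. With DESeq2 98 were called, against 4.54% of all tested. The fitted log2 fold change, inner over outer, had a median of 2.74 over the members and -0.01 over all tested gene models.

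The members with the most reads per length in inner pericarp were mostly short. Levels are compared between gene models as mean CPM per kb (1000 bases) of coding length, and the 10 highest had coding lengths from 210 to 1833 bases, 7 of them under 600. Ach06g232431.2, of 234 bases, led with 1315 CPM per kb in inner and 109 CPM per kb in outer pericarp. Its CPM were 310.5 and 304.7 in the inner libraries, against 24.3 and 26.8 in the outer libraries. The libraries of each tissue lay close together, and the ratio of means was 12.04, the highest among these 10.

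Ach17g437261.2, of 288 bases, had 214.5 and 227.5 CPM in inner pericarp, against 47.7 and 35.8 CPM in outer pericarp. That is 767 CPM per kb in inner and 145 CPM per kb in outer pericarp, the highest outer level per kb of any member. Ach06g232441.1, at 210 bases the shortest member, had 135.7 and 124.7 CPM in inner pericarp, against 19.02 and 17.6 CPM in outer pericarp. It is the next gene model after Ach06g232431.2, and its ratio was lower, at 7.11 against 12.04.

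Ach21g271701.2 (510 bases) had 236.6 and 227.7 CPM in inner pericarp, against 38.0 and 35.8 CPM in outer pericarp. Its level per kb in inner pericarp, 455, was followed by 399.8 for Ach09g028211.2 (270 bases), which had 106.6 and 109.3 CPM in inner and 21.3 and 16.4 CPM in outer pericarp. Both pairs of libraries stood well apart, with the lowest inner value 5.98 times the highest outer value for Ach21g271701.2 and just over 5 times for Ach09g028211.2. Ach16g309811.2 (1833 bases) was the most abundant member by CPM, with 496 and 519.8 CPM in inner pericarp, against 101 and 98.9 CPM in outer pericarp. Per kb it came below shorter members, at 277 in inner and 54.6 in outer pericarp, and its ratio of 5.08 was among the smaller ones.

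The other 4 of the 10 lay between 229 and 278 CPM per kb in inner pericarp. Ach00g079501.1 had 129.7 and 142.7 CPM in inner pericarp, against 22.9 and 19.1 CPM in outer pericarp. Ach11g125821.2 had 240.5 and 232.5 CPM in inner pericarp, against 18.5 and 32.3 CPM in outer pericarp. The outer libraries of Ach11g125821.2 differed by more than its inner libraries did, yet the lowest inner value was still 7.19 times the highest outer value. Ach29g196651.2 had 154.9 and 155.5 CPM in inner pericarp, against 38.4 and 24.7 CPM in outer pericarp. Ach26g130551.1 had 117.5 and 143.7 CPM in inner pericarp, against 37.0 and 18.0 CPM in outer pericarp. It varied most of these 10 within both tissues, and its lowest inner value was 3.18 times its highest outer value.

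**Figure D2:**
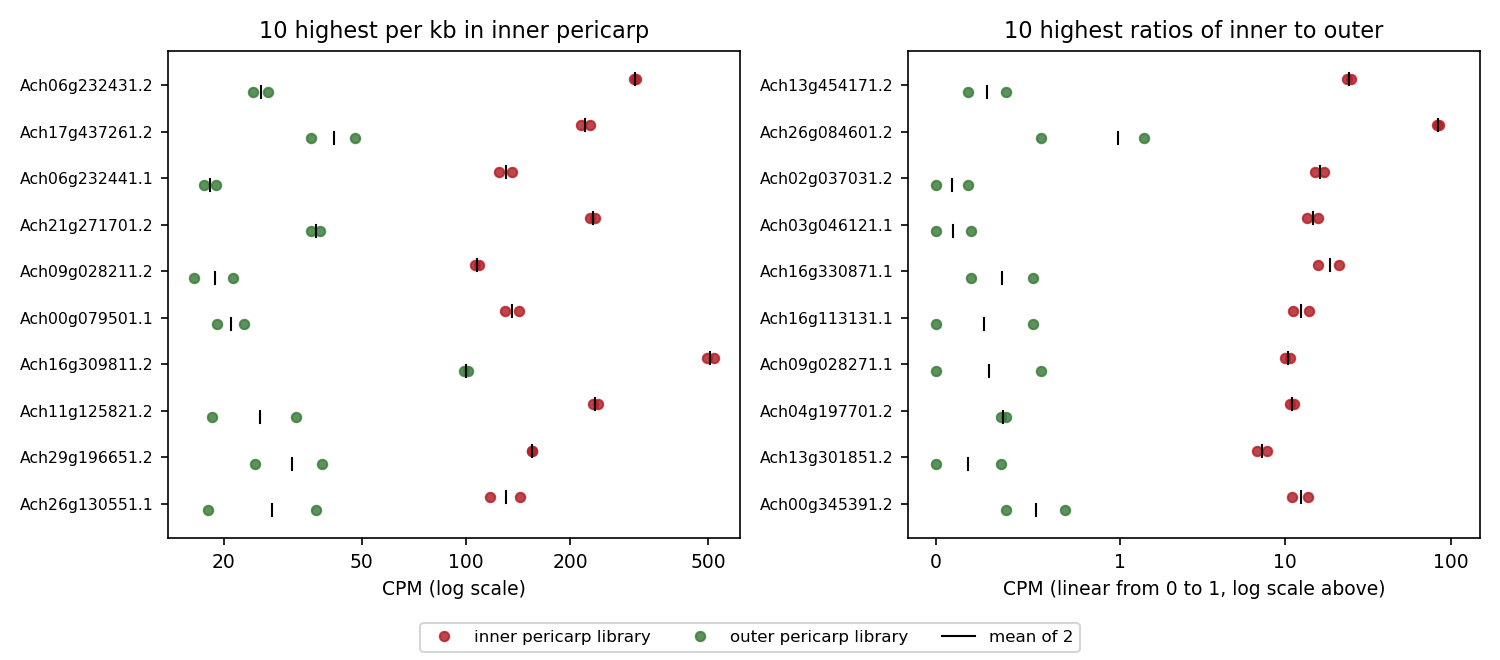
Values in CPM of each inner pericarp library (red, upper) and outer pericarp library (green, lower), with the mean of 2 as a black line, for the 10 members with the highest mean CPM per kb in inner pericarp (left, log scale) and the 10 with the highest ratio of inner to outer, with outer sums under 3 counts set to 3 (right, linear below 1 CPM). The inner and outer libraries do not overlap in any row, and outer values reach 0 in 5 of the 10 rows on the right.

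The members with the largest ratios had very few reads in outer pericarp. For this order an outer sum under 3 counts was set to 3, and none of the 10 was also among the 10 highest per kb. Ach26g084601.2 (1344 bases) was the most abundant of them, with 481 and 481 counts in inner pericarp, against 8 and 3 in outer pericarp. Its mean level was 84.0 CPM ± 1.25 (SD, n = 2) in inner and 0.991 CPM ± 0.591 (SD, n = 2) in outer pericarp, a ratio of 84.7. It is the member with a large ratio that rests on the most counts. The exact interval of the ratio of its summed counts was 46.3 to 167. Intervals of ratios, here and below, cover counting error only, and the libraries of a tissue scattered beyond it.

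Ach13g454171.2 (273 bases) had 135 and 145 counts in inner pericarp, against 1 and 2 in outer pericarp, with a counting interval of the ratio from 30.1 to 433. Ach02g037031.2 (237 bases) had 86 and 100 counts in inner pericarp, against 1 and 0 in outer pericarp, with an interval from 31.4 to 7030.2. Ach03g046121.1 (1596 bases) had 77 and 91 counts in inner pericarp, against 0 and 1 in outer pericarp, with an interval from 28.3 to 6353. By counting error alone these 3 ratios are bounded from below at near 30 and hardly from above. The order among them was thus not detectable at this depth.

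The remaining 6 had between 2 and 6 counts over both outer libraries. Ach16g330871.1 had 90 and 123 counts in inner pericarp, against 3 and 1 in outer pericarp. Ach16g113131.1 had 63 and 81 counts in inner pericarp, against 3 and 0 in outer pericarp. Ach09g028271.1 had 61 and 58 counts in inner pericarp, against 0 and 3 in outer pericarp. These 3 had ratios of means of 51.6, 47.5 and 36.2. Ach04g197701.2 had 64 and 62 counts in inner pericarp, against 2 and 2 in outer pericarp. Ach13g301851.2 had 44 and 39 counts in inner pericarp, against 2 and 0 in outer pericarp. Ach00g345391.2 had 78 and 64 counts in inner pericarp, against 4 and 2 in outer pericarp. The counting intervals of these last 3 overlapped, at 11.4 to 112, 10.6 to 332 and 10.1 to 62.4. Over all members, 11 had at most 3 counts in outer pericarp and 48 had under 20, so the outer level of many members is known only roughly.

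At the thresholds, members and non-members had nearly equal values. The ratios just inside were 4.01 for Ach17g172981.1, 4.03 for Ach15g430821.2 and 4.09 for Ach05g206981.2. The ratios just outside were 3.997 for Ach15g005601.1, 3.97 for Ach08g181371.2 and 3.95 for Ach00g282151.2. At the minimum of 5 CPM, the mean inner levels just inside were 5.06 CPM for Ach17g172981.1, 5.06 CPM for Ach23g113721.2 and 5.22 CPM for Ach00g358181.1. Just outside were Ach00g080971.2 at 4.97 CPM, Ach09g436741.2 at 4.97 CPM and Ach29g164741.1 at 4.80 CPM, with 29 and 26 counts of the last in inner pericarp against 0 and 0 in outer pericarp. The condition that libraries do not overlap removed 0 gene models beyond the other conditions.

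The libraries of a tissue were also compared with each other. Between the inner libraries, 0 of the 100 members differed by 2-fold or more, and the log2 ratio of replicate 1 over replicate 2 ran from -0.86 to 0.88 over the members. Over all 17889 gene models with at least 20 counts in the inner pair, 2.04% differed by 2-fold or more. The rule leaves members with at least 58 counts there, while the whole table includes gene models down to 20, so these shares are not matched for counting noise. A chi-square of the inner pair came to 1.51 per member (1 degree of freedom each) and 1.39 per gene model over all of these. Counting noise alone gives 1, so the inner libraries scattered beyond it, in the members and in the whole table.

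The outer libraries scattered more. Of the 52 members with at least 20 counts in the outer pair, 7 (13.5%) differed by 2-fold or more, against 4.19% of the 18075 gene models with that many counts. Members had fewer counts there, with a median of 52 over both libraries against 160, and the part of this in their wider ratios was not tested. Their chi-square was 3.67 per member, against 6.48 over all gene models, and these values are not matched for counts. Among these 52, the 3 with the largest gaps were Ach22g464571.2, Ach00g282731.2 and Ach29g259851.2. Ach22g464571.2 (348 bases) had 129 and 115 counts in inner pericarp, against 42 and 11 in outer pericarp. Ach00g282731.2 (750 bases) had 75 and 92 counts in inner pericarp, against 7 and 20 in outer pericarp. Ach29g259851.2 (285 bases) had 200 and 201 counts in inner pericarp, against 37 and 11 in outer pericarp. Outer pericarp replicate 1 was the higher library in Ach22g464571.2 and Ach29g259851.2 and the lower one in Ach00g282731.2.

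The rule was also applied to 3 libraries and the excess read with the fourth in place of its tissue's mean. The other tissue's mean is the one that entered the choice, so these shares are partly fixed by it and are a description. Without inner pericarp replicate 1 the rule chose 104 gene models, of which 90 (86.5%) were also at least 4-fold above outer pericarp in that library. Without inner pericarp replicate 2 it chose 102, of which 91 (89.2%) were. The outer libraries gave lower shares. Of the 117 chosen without outer pericarp replicate 1, 82 (70.1%) had an inner mean at least 4 times that library, and of the 104 chosen without outer pericarp replicate 2, 82 (78.8%) did.

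The gene models that missed 4-fold in the held-out library had smaller excesses, and with 1 exception they kept the direction. At least 2-fold was reached by 104 of 104, 102 of 102, 115 of 117 and 100 of 104. The lowest held-out ratios were 2.91 and 2.50 for inner pericarp replicates 1 and 2, and 1.71 and 0.901 for outer pericarp replicates 1 and 2, where 1 gene model was not above the outer library. Of the gene models with counts on both sides, the median ratio was 5.25 in held-out outer replicate 1, against 6.22 in the libraries used, and 6.17 in held-out outer replicate 2, against 6.39. Across the 4 choices, between 91 and 95 of those chosen were among the 100 members. Within the members themselves, 74 had at least a 4-fold excess in every pairing of an inner with an outer library, and 6 fell under 3-fold in the least favourable pairing. The lowest was 2.15, in Ach00g358181.1, with 21 and 39 counts in inner pericarp, against 3 and 9 in outer pericarp.

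**Figure D3:**
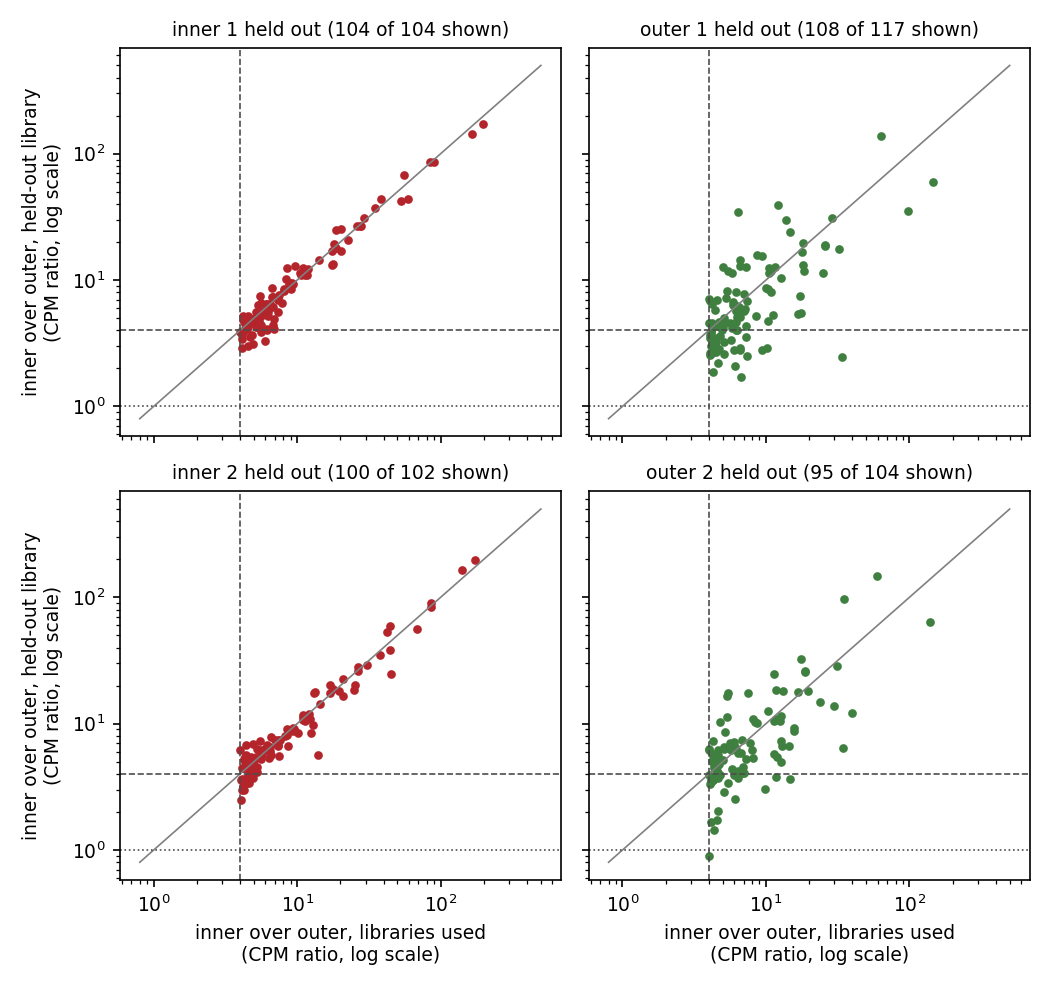
Each panel shows gene models chosen by the rule from 3 libraries, by their inner over outer CPM ratio in the libraries used (x) and with the held-out library in place of its tissue's mean (y), on log scales. Dashed lines mark a ratio of 4, the dotted line a ratio of 1 and the diagonal equal ratios, and gene models with 0 counts on a side are not drawn. Points lie close to the diagonal where an inner library was held out (red, 90 of 104 and 91 of 102 at 4 or more) and scatter more where an outer library was (green, 82 of 117 and 82 of 104).

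Coding length was not used by the rule, and members were shorter than expressed gene models as a whole. Their median was 927 bases, with quartiles of 506 and 1400 bases, against 1227 bases (774 and 1865) for the 13994 gene models at 5 CPM or more in inner pericarp. Members under 500 bases made up 25% of the set, against 10.3% of all those gene models, while 14% of the members and 21.8% of all had 2000 bases or more. Read the other way, the rule took 1.73% of gene models under 500 bases, 0.754% at 500 to 1000, 0.566% at 1000 to 2000 and 0.460% at 2000 bases or more. The same rule turned round gave 105 gene models enriched in outer pericarp, with a median of 1068 bases and 17.1% under 500 bases. Whether the sets differ in length was not tested, since gene models are not replicates.

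The length of the members did not change much with the choice of libraries or limits. The share under 500 bases was 25% and 23.5% without inner pericarp replicates 1 and 2, 25.6% and 24.0% without outer pericarp replicates 1 and 2, and 22.6% to 27.3% with fold minimums of 3 and 8 or level minimums of 2 and 10 CPM. The outer libraries differ from each other with length. Over all gene models at 5 CPM or more in outer pericarp, replicate 1 over replicate 2 had a median log2 ratio of 0.11 under 500 bases and -0.28 at 2000 bases or more. In members with at least 20 outer counts it was 0.24 (13 members) and -0.09 (6 members). The part of this trend in the members' lengths was not tested.

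Short members were also those with the highest level per length. The median level in inner pericarp was 61.2 CPM per kb for members under 500 bases, 22.3 at 500 to 1000, 9.88 at 1000 to 2000 and 3.63 at 2000 bases or more. Over all gene models at 5 CPM or more the same medians were 48.5, 25.9, 14.9 and 8.60. A fall with length was thus not particular to the members, though theirs was steeper. A minimum set in CPM asks more per kb of a short gene model. Ratios ran from a median of 7.11 under 500 bases and 9.31 at 500 to 1000 to 6.23 and 4.94 in the longer classes, with Spearman's rho of -0.22 between length and ratio over the 100 members, given as a description. The longest member, Ach16g212461.2 (3726 bases), had 87 and 95 counts in inner pericarp, against 15 and 21 in outer pericarp.

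**Figure D4:**
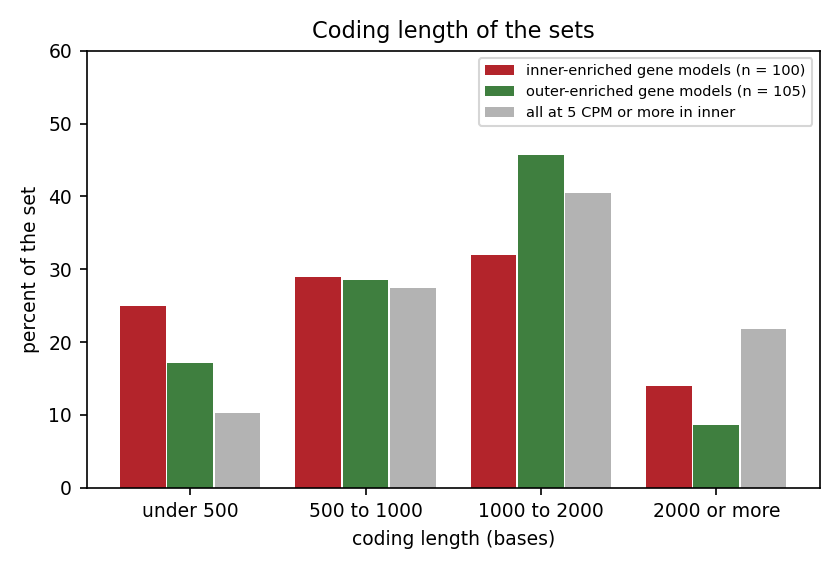
Bars give the percent of each set in 4 classes of coding length (bases) for the 100 inner-enriched gene models (red), the 105 outer-enriched gene models (green) and all 13994 gene models at 5 CPM or more in inner pericarp (grey). The inner-enriched set has 25% of its gene models under 500 bases, against 10.3% of all.

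Members were spread over 28 of the 30 identifier groups. Group 00, the largest, held 16, or 0.677% of its gene models at 5 CPM or more in inner pericarp, close to the 0.715% of the whole table. Group 03 held 10 (1.49%), groups 15 and 17 held 6 each (1.22% and 1.86%), and groups 08 and 19 held 0 of 484 and 0 of 408. With so few members per group these shares are counts and not a ranking. The 6 members of group 17 stood beside 0 outer-enriched gene models, and the 10 of group 03 beside 6. Groups 04, 14 and 28, with 4, 1 and 1 members, also held 0 outer-enriched gene models.

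**Figure D5:**
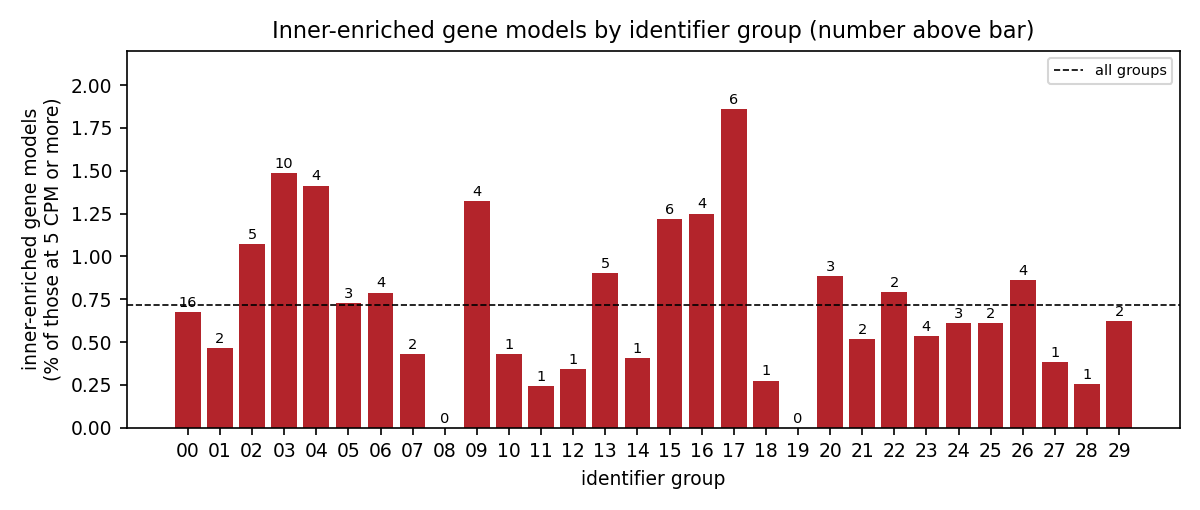
Bars give the inner-enriched gene models as a percent of all gene models at 5 CPM or more in inner pericarp, for each identifier group, with their number above the bar and the share over all groups as a dashed line. The bars rest on 0 to 16 gene models each, and 4 of the 6 in group 17 have the same coding length.

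In the listed order, 3 pairs of members were direct neighbours, and 1 more pair had a single gene model between them. The 105 outer-enriched gene models held 5 and 3 such pairs. The 13994 gene models at 5 CPM or more in inner pericarp held 5472 and 2701, or 39.1 and 19.3 per 100. That set is far larger, so its gene models lie closer together in the list and the shares are not matched. No test of these counts was made. In the pair Ach03g081041.2 (1146 bases) and Ach03g081051.1 (693 bases), the first had 227 and 217 counts in inner pericarp, against 39 and 29 in outer pericarp. The second had 316 and 360 counts in inner pericarp, against 59 and 50 in outer pericarp. Their ratios were 6.24 and 5.91. The pair in group 06 was described above. The third pair, Ach17g436451.2 and Ach17g436461.2, lay in group 17. Ach17g436451.2 had 122 and 125 counts in inner pericarp, against 15 and 21 in outer pericarp. Ach17g436461.2 had 82 and 116 counts in inner pericarp, against 18 and 14 in outer pericarp. Their ratios were 6.48 and 5.90, and both have a coding length of 264 bases.

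That length recurred. Of the 100 members, 4 were 264 bases long, and all 4 lay in identifier group 17. This coincidence was noticed after the values were seen. The table holds 105 gene models of 264 bases, of which 14 reached 5 CPM in inner pericarp, and 7 of the 105 were in group 17. Beside the adjacent pair, the members were Ach17g172981.1, with 28 and 30 counts in inner and 10 and 4 in outer pericarp, and Ach17g173001.1, with 64 and 55 counts in inner and 4 and 15 in outer pericarp. The gene model between these last members, Ach17g172991.1, also has 264 bases. It had 20 and 26 counts in inner pericarp, against 10 and 4 in outer pericarp, and missed the set with a mean of 4.01 CPM and a ratio of 3.17. The gene model before them, Ach17g172971.2 (279 bases), had 1060 and 1092 counts in inner pericarp, against 351 and 301 in outer pericarp. The lowest inner CPM was above the highest outer CPM in Ach17g172971.2 and in Ach17g172991.1, which are not members. For the members in this run of 4 gene models the rule required it. A further gene model of that length nearby, Ach17g173021.2, had 255 and 279 counts in inner pericarp, against 281 and 170 in outer pericarp, and its libraries overlapped. Whether gene models of equal length in this group are copies that share reads cannot be told from the table, and their separate counts are uncertain for that reason.

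The gene models directly beside a member were also compared. Those that met the rule are members themselves and were left out, which left 181. Of these, 97 passed the low-count filter. In the fit reported all 100 members were called higher in inner pericarp. They still count in the shares over all tested gene models, here and below, so those sets are not alike. Of the 97, 16 (16.5%) were higher in inner pericarp (edgeR, adjusted p under 0.05), against 8.56% of all tested, and 7 (7.22%) were higher in outer pericarp, against 9.36% of all tested. Their median log2 fold change was 0.03, with quartiles of -0.20 and 0.37, against -0.01 (-0.29 and 0.27) over all tested gene models. The 16 had log2 fold changes from 0.36 to 3.85 and 8 of them reached 2-fold. The rest of the neighbours were thus mostly not called, and no test of the share was made. The highest value was that of Ach12g059221.2, with 27 and 20 counts in inner pericarp, against 2 and 1 in outer pericarp. It has 759 bases, like the member beside it, Ach12g059231.1. Ach17g172991.1, described above, is also among the 16. Whether these 2 neighbours share reads with members of equal length cannot be told from the table.

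The number of neighbours called moved with the libraries used, and so did the background. Without inner pericarp replicate 1, 9 of 99 were higher in inner pericarp against 3.75% of all tested, and 5 were higher in outer pericarp against 3.79%. Without inner pericarp replicate 2, 8 of 98 were higher in inner pericarp against 3.33%, and 3 were higher in outer pericarp against 3.33%. Without outer pericarp replicate 1 the counts were 18 and 12 of 99, against 11.1% and 10.5%. Without outer pericarp replicate 2 they were 15 and 9 of 100, against 8.58% and 9.19%. In these fits 1 tissue has a single library, which is assumed to vary like the libraries of the other. The pairs did not scatter alike. Over all gene models with at least 20 counts, the chi-square per gene model was 1.39 in the inner and 6.48 in the outer pair. Fits without an outer library took their spread from the inner pair alone, so the numbers called are not matched between these fits.

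A few of these neighbours, named here after their values were seen, show how they compared with the member beside them. Ach11g125831.1 (1137 bases), next to the member Ach11g125821.2, had 63898 and 66377 counts in inner pericarp, against 20110 and 20312 in outer pericarp. Its fitted log2 fold change was 1.68, against 3.30 for the member, which had 1363 and 1346 counts in inner and 105 and 169 in outer pericarp. Ach26g130561.2 (615 bases), next to the member Ach26g130551.1, had 957 and 863 counts in inner pericarp, against 247 and 224 in outer pericarp, a log2 fold change of 1.94 against 2.29 for the member. The neighbour of Ach09g028271.1 on one side went the other way: Ach09g028281.1 (1617 bases) had 2 and 2 counts in inner pericarp, against 17 and 21 in outer pericarp. How reads at the borders of neighbouring gene models were assigned is not given in the sources used here, and its part in these values was not tested.

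Set beside the outer-enriched gene models chosen by the same rule turned round, the members were similar in number and in the size of the difference. The median ratio of the higher to the lower tissue was 6.48 in the 100 inner-enriched and 6.69 in the 105 outer-enriched gene models. The median level in the higher tissue was 14.7 CPM and 14.6 CPM. The same limits cut both sets, so the likeness of these medians is partly set by the rule. The top of the range differed: the most abundant member had 508 CPM in inner pericarp, while the most abundant outer-enriched gene model had 14143 CPM in outer pericarp. No test of this difference was made.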

How the data were processed

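The values are raw counts, deposited by the authors as whole numbers for each gene model and library. Not given in the sources used here are the aligner, counter, strand setting, genome build and annotation. The submitters' processing notes name DESeq without its version. The members and lists were chosen with earlier results of these data known.

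CPM were counts over column totals without Ach00g022471.2. Differences over all gene models were fitted in R 4.3.3 with edgeR 4.0.16 (filterByExpr, TMM, glmQLFit and glmQLFTest, tissue as the only term, Benjamini-Hochberg), without Ach00g022471.2, in all 4 libraries. DESeq2 1.42.0 and limma-voom (limma 3.58.1) were alternatives. Intervals of ratios are exact conditional binomial 95% intervals. The longest and shortest members, the 10 highest per kb, the 10 highest ratios, direct neighbours, the 3 widest outer pairs and the 3 on each side of a threshold were named by rule. Lists of pigment, seed, vascular, skin and photosynthesis genes could not be matched, because identifiers carry no names, and gave no result.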

Additional observations from a re-analysis of the deposited data

How the results depend on the processing

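The number of members follows from its limits. It was 164 with a 3-fold and 41 with an 8-fold minimum, 159 with a 2 CPM and 66 with a 10 CPM minimum, 111 with TMM-scaled libraries (all 100 members among them) and 114 with Ach00g022471.2 kept in the totals (95 of the members among them). Keeping Ach00g022471.2 also moved the members' share of counts to 0.467% in inner and 0.0678% in outer pericarp, because totals grew. The median log2 fold change of the members stayed between 2.68 and 2.88 over all 13 alternatives.

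All 100 members were called in the fit reported. Without a low-count filter 57 were, with 182 of all tested gene models called for inner and 158 for outer pericarp and the prior degrees of freedom at 1.97 against 12.1. With DESeq2 98 were, with 834 and 776 of all tested, and Ach00g361621.2 (38 and 36 counts in inner, 15 and 1 in outer pericarp) and Ach22g464571.2 were not called. Median-of-ratios, upper-quartile and library-total scaling, limma-voom and keeping Ach00g022471.2 in the fit each called all 100. These settings called 6.82% to 9.14% of all tested gene models higher in inner pericarp. A mean of at least 5 CPM over all libraries left 70 members to test, all called, against 10.25% of all tested. With any single library left out, 99 to 100 members were called, and over all gene models 635 to 2120 for inner and 634 to 1991 for outer pericarp. The member lost, named after its values were seen like Ach00g361621.2, was Ach03g188071.2 without inner pericarp replicate 1 and Ach00g358181.1 without inner pericarp replicate 2. With the inner libraries summed as 1 sample, an alternative chosen after seeing the data, 736 and 739 were called, and all 100 members.

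Neighbours of members, whose alternatives were also chosen after seeing the data, numbered 16 higher in inner and 7 higher in outer pericarp as reported. They numbered 3 and 2 without a low-count filter, 10 and 4 with DESeq2, 8 and 4 with the inner libraries summed, and 8 to 18 and 3 to 12 with each library left out. The shares over all tested gene models moved too, so these numbers alone are not matched between settings. As reported, 97 neighbours were tested, with 8.56% and 9.36% of all tested called for inner and outer pericarp. Without a low-count filter 147 neighbours were tested, and 0.640% and 0.556% of all tested were called. With DESeq2 97 neighbours were tested, and 4.54% and 4.23% of all tested were called. Causes were not tested. Depth limits the members most in outer pericarp, where the rule selects low counts. In the outer libraries 3 counts correspond to 0.528 and 0.574 CPM, against 0.529 and 0.518 CPM in the inner libraries.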
